A study of Mus musculus with 12 samples.

Results

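Meg3 and Rian are long non-coding RNAs of the imprinted Dlk1-Dio3 domain on mouse chromosome 12, and a group of microRNA genes lies beside them. The set described here holds 10 listed genes, Meg3, Rian, Mir770, Mir673, Mir431, Mir433, Mir127, Mir434, Mir136 and Mir370. They were found by taking every probe set that the array annotation assigns to a listed gene. Of the 10, 8 had a probe set of their own, out of 19938 genes on the array that did. Mir433 had only a probe set listed for both Mir433 and the transcript 6430411K18Rik. Rian had a second and brighter probe set listed for both Rian and AF357355, a small nucleolar RNA (snoRNA) gene inside it. No probe set carried the name Mir770, which is not analysed here. Counts below are over the 8 genes with a probe set of their own, and the 2 shared probe sets are given beside them.

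The samples were 12 arrays of 4 induced pluripotent stem (iPS) cell lines, with 3 cultures per line. All 4 lines were made from C57BL/6J mouse embryonic fibroblasts with 3 reprogramming factors and grown in embryonic stem cell medium. LiPS-45 and LiPS-57 are labelled competent for tetraploid complementation, a test in which the injected cells must form the whole embryo because the tetraploid host embryo contributes mainly to extraembryonic tissue. LiPS-47 and LiPS-50 are labelled as lacking this competence. Each line stands for its competence class with only 1 other line. The p-values for pairs of lines rest on how far cultures of the same line varied, and nothing in the labels says more of the cultures than that they are biological repeats.

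In the Dlk1-Dio3 domain the protein-coding genes Dlk1, Rtl1 and Dio3 are expressed from the paternal chromosome, while Meg3, Rian and the microRNAs and snoRNAs around them are expressed from the maternal one. Methylation of a control region upstream of Meg3 on the paternal chromosome keeps the non-coding RNAs silent there. In mouse iPS cells, loss of Meg3 and Rian expression is a known accompaniment of failed tetraploid complementation. Rian is the host transcript of many C/D box snoRNAs. Several of the microRNAs lie opposite Rtl1, and Mir127 and Mir136 are known to act against the Rtl1 transcript.

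Of the 8 microRNA genes in the set, 6 lie within the span that RefSeq gives to Rtl1, 1 (Mir770) inside Meg3 and 1 (Mir370) inside Rian. RefSeq (GRCm38.p6) holds 16 mature sequences for these 8 genes, with 16 distinct seeds, the bases 2 to 8 that pair with a target. Of these seeds, 14 were shared with no other of the 1679 mature mouse microRNAs in the table. The exceptions are mmu-miR-673-5p, which shares its seed with mmu-miR-6985-3p, and mmu-miR-370-5p, which shares it with mmu-miR-1193-3p. The sequences of Mir127 and Mir370, whose probe sets differed most between lines, and of Mir431, whose probe set differed least between LiPS-45 and LiPS-57, are shown here 5′ to 3′ with the seed in capitals, so that they can be compared. No 2 of the 6 seeds are identical.
mmu-miR-127-5p: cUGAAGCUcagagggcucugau
mmu-miR-127-3p: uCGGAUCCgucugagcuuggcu
mmu-miR-370-5p: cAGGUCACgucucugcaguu
mmu-miR-370-3p: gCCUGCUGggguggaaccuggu
mmu-miR-431-5p: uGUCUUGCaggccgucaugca
mmu-miR-431-3p: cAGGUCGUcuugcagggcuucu

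The array was hybridised with DNA copied from total RNA by whole-transcript amplification, so a probe set at a microRNA gene does not tell the mature microRNA from its hairpin or from a longer transcript across the gene. The hairpins of Mir127 (chr12:109592846-109592915, plus strand, 70 bases) and Mir370 (chr12:109618258-109618336, plus strand, 79 bases) are shown for that reason, with both mature arms in capitals.
Mir127: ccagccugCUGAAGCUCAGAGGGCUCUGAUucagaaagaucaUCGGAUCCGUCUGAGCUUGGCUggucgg
Mir370: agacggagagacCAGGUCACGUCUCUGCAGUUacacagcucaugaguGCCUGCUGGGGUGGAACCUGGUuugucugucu

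RefSeq gives Meg3 2 start sites and Rian 1. The first Meg3 promoter (chr12:109540746-109541045, plus strand, a window around the start site) is shown because Meg3 is the most upstream of these RNAs.
Meg3 promoter: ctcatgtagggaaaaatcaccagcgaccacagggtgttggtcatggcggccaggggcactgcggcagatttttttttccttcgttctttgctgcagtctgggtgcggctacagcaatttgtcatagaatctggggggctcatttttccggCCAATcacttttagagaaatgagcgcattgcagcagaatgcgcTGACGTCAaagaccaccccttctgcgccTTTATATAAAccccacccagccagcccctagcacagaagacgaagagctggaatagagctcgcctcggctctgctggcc
The capitals mark matches, on either strand, to the cyclic AMP response element TGACGTCA at position -57, to TATAAA at -25 and overlapping on the other strand at -29, and to CCAAT at -100, counted from the start site to the first base of the match. TGACGTCA is held by 1.79% of 32851 mouse promoters of the same length, TATAAA by 13.6% and CCAAT by 37.4%. The second Meg3 promoter and the Rian promoter hold none of the 3 motifs. The first Meg3 promoter has 13 CpG dinucleotides, the second 1 and the Rian promoter 0, against a median of 7 over all promoters. Of all promoters, 62.1% have fewer than the first Meg3 promoter and 5.43% fewer than the second.

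Values are given as log2(intensity + 1) of the deposited linear intensities. All 4 lines carried the pluripotency markers: each of 10, Pou5f1, Sox2 and Nanog among them, lay above the 40th percentile of brightness, and their summed intensity ran over 20659 to 21415 for LiPS-45, 21224 to 21618 for LiPS-57, 20539 to 21047 for LiPS-47 and 20649 to 21284 for LiPS-50. LiPS-50 stood apart in 31 markers of fibroblasts and feeder cells, whose summed intensity ran over 29345 to 34600 for LiPS-45, 29701 to 31923 for LiPS-57 and 25204 to 31113 for LiPS-47, against 40852 to 45837 for LiPS-50. Relative to LiPS-50, 30 of the 31 were called lower for LiPS-45, 29 for LiPS-57 and 30 for LiPS-47. None of the 31 was called between LiPS-45, LiPS-57 and LiPS-47, with median differences of 0.010 in LiPS-45 minus LiPS-57, 0.15 in LiPS-45 minus LiPS-47 and 0.13 in LiPS-57 minus LiPS-47. Over all tested probe sets only 0.266%, 0.0622% and 0.159% were called in these pairs. The differences were positive for 16, 31 and 30 of the 31 in the same order, against 50.7%, 48.7% and 47.8% of all. The part of this shift in the results against LiPS-47 was not tested. Among the defining fibroblast markers, Lum and Fap were below the 40th percentile in these 3 lines, and in LiPS-50 Fap alone was. The part of this difference in the results against LiPS-50 was not tested. Of 9 trophectoderm markers, the keratins Krt8 and Krt18 were called lower in LiPS-57 than in LiPS-47, and the summed intensity of the 9 was 2465 to 3073 for LiPS-57 and 3884 to 4524 for LiPS-47, with Elf5 below the 40th percentile in both. The part of these markers in the results between LiPS-57 and LiPS-47 was not tested. The 8 primitive endoderm markers had none called between LiPS-45, LiPS-57 and LiPS-47, and Sox17 lay below the 40th percentile in every line. Both lists also moved against LiPS-50, where 16.5% of all tested probe sets were called for LiPS-45, 15.6% for LiPS-57 and 15.8% for LiPS-47. Pdgfra stands in both the primitive endoderm and the fibroblast list. Relative to LiPS-50, calls among the primitive endoderm markers were 2 higher and 3 lower for LiPS-45, 1 higher and 2 lower for LiPS-57, and 1 higher and 2 lower for LiPS-47. Among the trophectoderm markers they were 2 higher and 3 lower for LiPS-45, 1 higher and 3 lower for LiPS-57, and 3 higher and 3 lower for LiPS-47. The largest positive differences from LiPS-50 were 1.28 for Foxa2 in LiPS-45 and 1.55 for Eomes in LiPS-45. The most negative were -1.25 for Pdgfra and -1.19 among the trophectoderm markers, both in LiPS-47. The summed intensity of the primitive endoderm markers was 724 to 798 for LiPS-45, 696 to 705 for LiPS-57 and 628 to 735 for LiPS-47, against 873 to 1006 for LiPS-50. Their part in the results against LiPS-50 was not tested. In such bulk samples fewer cells of a type and less RNA per cell cannot be told apart.

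Both long non-coding RNAs were highest in LiPS-45 and lowest in LiPS-57, the 2 competent lines, with LiPS-47 and LiPS-50 between them. The LiPS-45 level exceeded that of LiPS-57 by 2.14-fold for Meg3 and 2.46-fold for Rian. Averaged over the 12 arrays, the Meg3 probe set lay at the 94.5th percentile of brightness over all tested probe sets and that of Rian at the 61.6th.

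Meg3, a long non-coding RNA at the upstream end of the maternally expressed RNAs, measured 10.73, 10.75 and 10.60 in the LiPS-45 cultures, 9.55, 9.66 and 9.58 in those of LiPS-57, 10.47, 10.26 and 10.32 in those of LiPS-47 and 10.45, 10.23 and 10.28 in those of LiPS-50. All 3 LiPS-45 cultures lay above, and all 3 LiPS-57 cultures below, every culture of LiPS-47 and LiPS-50, while those of LiPS-47 and LiPS-50 overlapped. The line means were 10.70 ± 0.0798 for LiPS-45, 9.60 ± 0.0568 for LiPS-57, 10.35 ± 0.106 for LiPS-47 and 10.32 ± 0.118 for LiPS-50 (± SD, n = 3 cultures per line).

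Meg3 differed between LiPS-45 and LiPS-57 by 1.10 (SE 0.0786, limma adjusted p = 3.85e-05). It was lower in LiPS-57 than in LiPS-47, with a difference of -0.76 (adjusted p = 0.00186 by limma), and lower in LiPS-57 than in LiPS-50, with a difference of -0.73 (adjusted p = 9.00e-05 by limma). It was higher in LiPS-45 than in LiPS-50 by 0.38 (limma adjusted p = 0.00627). The difference of 0.34 between LiPS-45 and LiPS-47 did not pass the test (limma adjusted p = 0.192), although the cultures did not overlap. Between LiPS-47 and LiPS-50 the difference was 0.031, with a 95% interval of -0.14 to 0.20.

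Rian, the snoRNA host transcript, measured on its own probe set 7.29, 7.26 and 7.14 in the LiPS-45 cultures, 6.22, 5.86 and 5.72 in those of LiPS-57, 7.12, 6.98 and 7.15 in those of LiPS-47 and 6.80, 6.54 and 6.94 in those of LiPS-50. Every LiPS-57 culture was below every culture of the other 3 lines, and LiPS-45 overlapped with LiPS-47. The means were 7.23 ± 0.0783 for LiPS-45, 5.93 ± 0.259 for LiPS-57, 7.08 ± 0.0870 for LiPS-47 and 6.76 ± 0.204 for LiPS-50 (± SD, n = 3 cultures per line).

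The LiPS-45 mean of Rian exceeded that of LiPS-57 by 1.30 (SE 0.126, limma adjusted p = 3.52e-04). It was lower in LiPS-57 than in LiPS-47, with a difference of -1.15 (adjusted p = 0.00294 by limma), and lower than in LiPS-50, with a difference of -0.83 (adjusted p = 9.49e-04 by limma). Against LiPS-50, LiPS-45 was higher by 0.47 (limma adjusted p = 0.0231). That call was lost when replicate 1 or 2 of LiPS-45 or replicate 1 or 2 of LiPS-50 was left out, with adjusted p of 0.0715, 0.0621, 0.0519 and 0.0910. The difference of 0.32 between LiPS-47 and LiPS-50 did not pass (limma adjusted p = 0.114).

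The brighter probe set listed for both Rian and AF357355 separated the lines further. It measured 9.08, 8.94 and 8.90 in the LiPS-45 cultures, 7.68, 7.09 and 7.37 in those of LiPS-57, 8.91, 8.82 and 8.81 in those of LiPS-47 and 8.03, 7.92 and 7.86 in those of LiPS-50. LiPS-45 and LiPS-47 formed a high pair whose cultures overlapped, and LiPS-57 and LiPS-50 lay below them without overlapping each other. The difference between LiPS-45 and LiPS-57 was 1.60, 3.02-fold (SE 0.117, limma adjusted p = 4.07e-05). Between LiPS-57 and LiPS-47 it was -1.47, 2.77-fold lower in LiPS-57 (limma adjusted p = 6.13e-04), the most negative difference of all 28939 probe sets tested. Between LiPS-47 and LiPS-50, where neither Meg3 nor Rian's own probe set was called, this probe set was 1.88-fold higher in LiPS-47 (limma adjusted p = 2.80e-04).

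**Figure D1:**
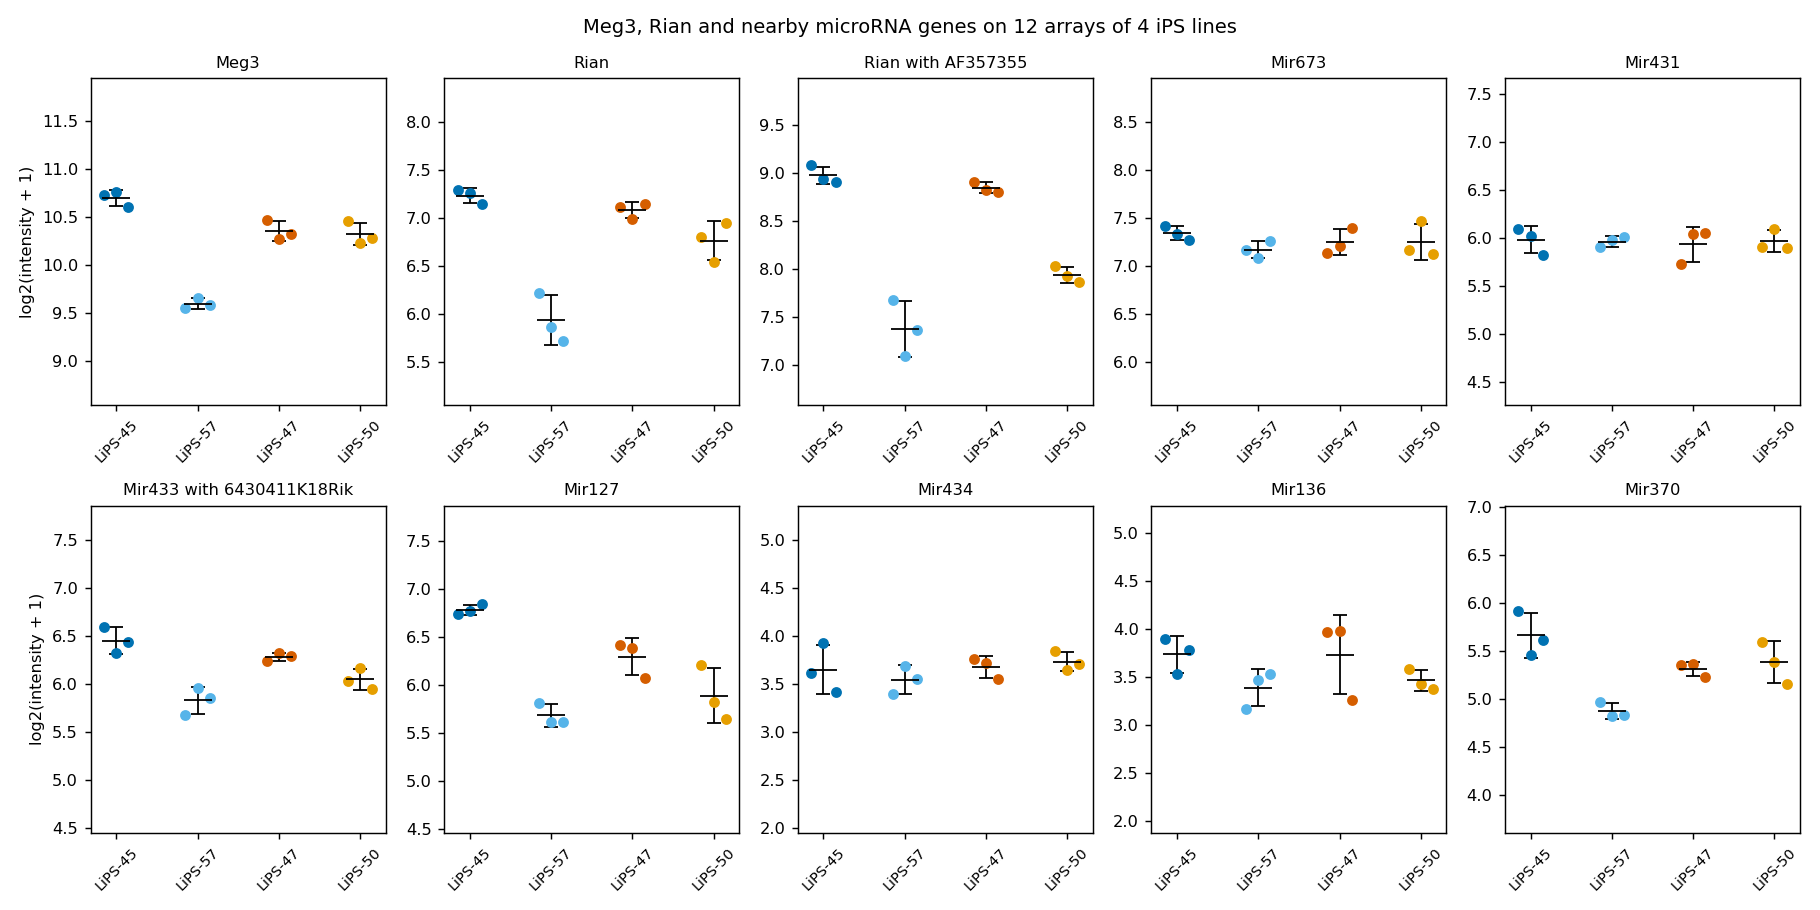
Log2(intensity + 1) of the 10 probe sets, 1 panel each, for 3 cultures of each of 4 iPS lines; points are arrays, horizontal bars the line means and whiskers the SD, and every vertical axis spans the same range around the panel's mean. LiPS-57 lies lowest for Meg3, Rian, Mir127 and Mir370, while Mir673, Mir431, Mir434 and Mir136 show little separation of the lines.

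Of the 6 microRNA genes with a probe set of their own, Mir127 and Mir370 differed between LiPS-45 and LiPS-57. Mir127 was 2.14-fold and Mir370 1.73-fold higher in LiPS-45 in that pair.

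Mir127, whose gene lies opposite Rtl1, measured 6.74, 6.77 and 6.84 in the LiPS-45 cultures, 5.82, 5.62 and 5.61 in those of LiPS-57, 6.42, 6.39 and 6.08 in those of LiPS-47 and 6.21, 5.82 and 5.64 in those of LiPS-50. LiPS-45 was above all other cultures, and LiPS-57 and LiPS-50 overlapped. The difference between LiPS-45 and LiPS-57 was 1.10 (SE 0.132, limma adjusted p = 0.00219), and that between LiPS-45 and LiPS-50 was 0.89 (limma adjusted p = 6.97e-04). Mir127 was not called between LiPS-57 and LiPS-50, with a difference of -0.21 and a 95% interval of -0.49 to 0.08. Nor was it called in LiPS-45 or LiPS-57 against LiPS-47, with differences of 0.49 and -0.61 (limma adjusted p = 0.277 and 0.169). The difference of 0.41 between LiPS-47 and LiPS-50 lay just outside the threshold (limma adjusted p = 0.0575) and passed it without replicate 3 of LiPS-47 (adjusted p = 0.0292) or without replicate 1 of LiPS-50 (adjusted p = 0.00685).

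Mir370, whose gene lies inside Rian, measured 5.92, 5.46 and 5.62 in the LiPS-45 cultures, 4.97, 4.82 and 4.84 in those of LiPS-57, 5.35, 5.37 and 5.23 in those of LiPS-47 and 5.60, 5.39 and 5.16 in those of LiPS-50. All LiPS-57 cultures were below those of the other lines, which lay between 5.16 and 5.92. The difference between LiPS-45 and LiPS-57 was 0.79 (limma adjusted p = 0.0184). It no longer passed without replicate 1 or 3 of LiPS-45 (adjusted p = 0.0590 and 0.0672) or without any 1 replicate of LiPS-57 (0.0545, 0.112 and 0.104). LiPS-57 was lower than LiPS-50 by a difference of -0.51 (limma adjusted p = 0.0144), a call lost without replicate 2 of LiPS-57 (adjusted p = 0.0522) or replicate 1 of LiPS-50 (adjusted p = 0.0620). Against LiPS-47, Mir370 was called neither in LiPS-45 nor in LiPS-57, with differences of 0.35 and -0.44 (limma adjusted p = 0.413 and 0.416).

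The probe set listed for both Mir433 and 6430411K18Rik measured 6.60, 6.32 and 6.44 in the LiPS-45 cultures, 5.68, 5.96 and 5.86 in those of LiPS-57, 6.24, 6.32 and 6.29 in those of LiPS-47 and 6.03, 6.17 and 5.95 in those of LiPS-50. LiPS-57 was the lowest line, though it overlapped with LiPS-50. LiPS-45 exceeded LiPS-57 by 0.62 (limma adjusted p = 0.0114) and LiPS-50 by 0.40 (limma adjusted p = 0.00961). The call between LiPS-45 and LiPS-57 was lost without replicate 1 or 3 of LiPS-45 (adjusted p = 0.0577 and 0.0593) or replicate 1 or 3 of LiPS-57 (0.0552 and 0.0532).

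The remaining 4 microRNA genes were not called in any pair of lines. Mir673 averaged 7.34 for LiPS-45, 7.17 for LiPS-57, 7.25 for LiPS-47 and 7.25 for LiPS-50. Mir431 averaged 5.98 for LiPS-45, 5.96 for LiPS-57, 5.93 for LiPS-47 and 5.96 for LiPS-50. The difference of Mir431 between LiPS-45 and LiPS-57 was 0.019, with a 95% interval of -0.20 to 0.24. Mir434 and Mir136 were dim, with brightness percentiles of 14.2 and 13.0, and there a difference in RNA is hard to detect. Their differences between LiPS-45 and LiPS-57 were 0.10 (95% interval -0.16 to 0.37) and 0.35 (95% interval -0.03 to 0.73).

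**Figure D2:**
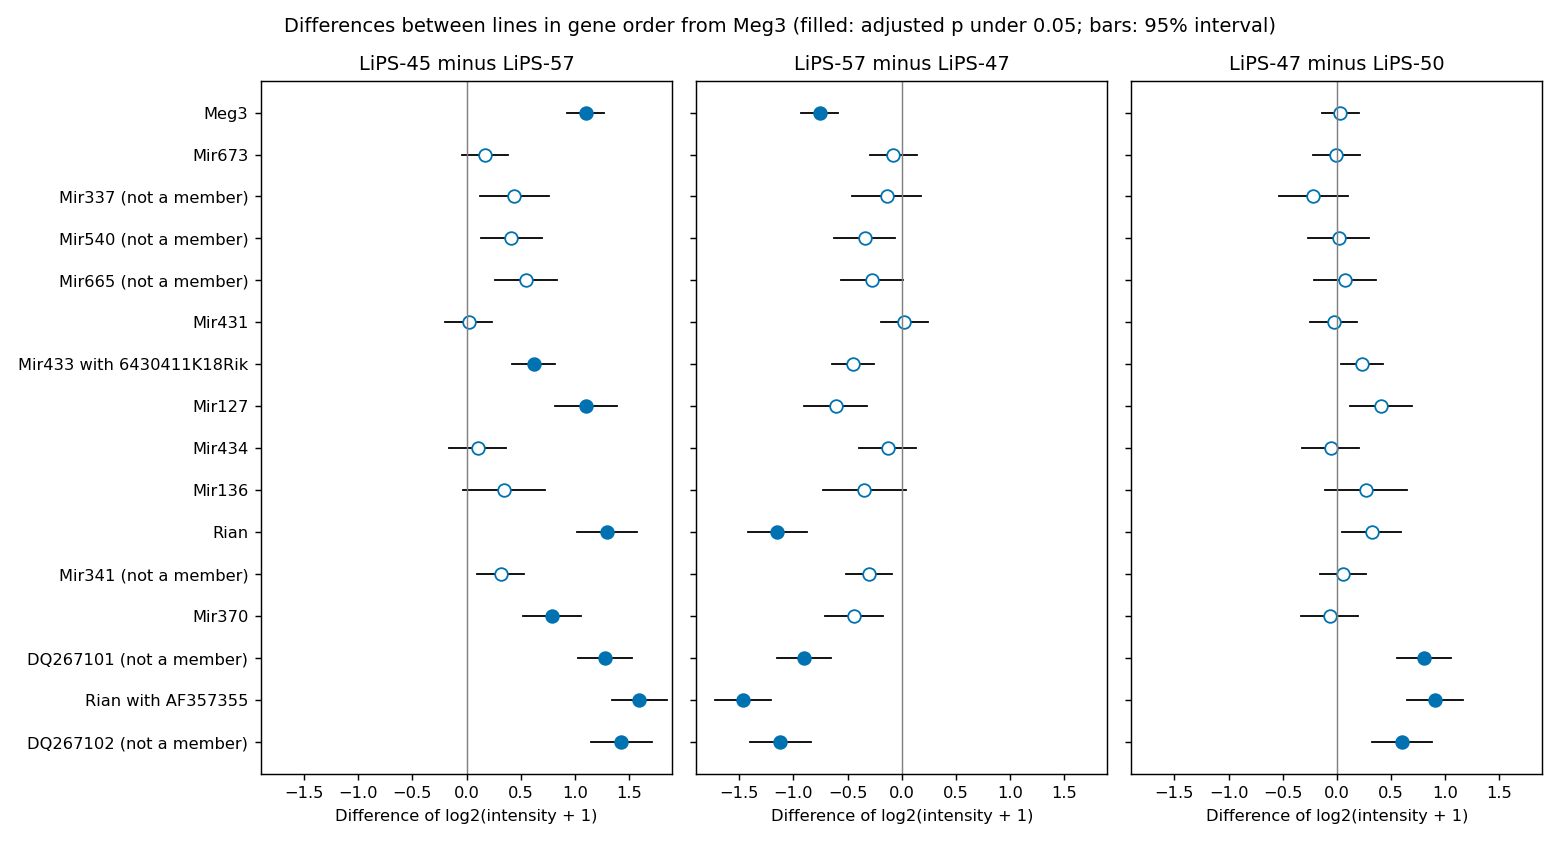
Differences of log2(intensity + 1) between lines for the members and neighbouring RNA genes, ordered from Meg3 downwards, in 3 pairs of lines; circles are differences, filled where the adjusted p was under 0.05, and bars are 95% intervals. In LiPS-45 minus LiPS-57 the largest differences lie at Rian and the snoRNA genes inside it, between 1.28 and 1.60, and in LiPS-47 minus LiPS-50 the filled circles are the 3 probe sets of snoRNA genes.

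In LiPS-45 against LiPS-57, 4 of the 8 genes were called, all as higher, where 0.266% of all tested probe sets were called and 0.214% were called higher. Their median difference was 0.57, against 0.0019 over all tested probe sets, and the cultures of the 2 lines did not overlap for 5 of 8, against 14.3% of all. LiPS-57 was called lower than LiPS-47 for 2 of 8, against 0.159% of all called and 0.145% called lower. In the 3 pairs with LiPS-50 the background was far higher. LiPS-45 was called higher than LiPS-50 for 3 of 8, against 16.5% of all called and 8.30% called higher. LiPS-57 was called lower than LiPS-50 for 3 of 8, against 15.6% of all called and 8.16% called lower. On their own probe sets, 0 of 8 were called between LiPS-47 and LiPS-50, against 15.8% of all. In that pair 2 of 8 had an unadjusted p under 0.05, against 27.1% of all. Between LiPS-45 and LiPS-47 limma called 0 of 8, against 0.0622% of all, with 3 of 8 at an unadjusted p under 0.05, against 8.93%. With the 2 shared probe sets added, 6 of 10 were called in LiPS-45 minus LiPS-57 and 3 of 10 in LiPS-57 minus LiPS-47. In LiPS-45 minus LiPS-47 it was 0 of 10. Against LiPS-50 they were 5 of 10 for LiPS-45, 4 for LiPS-57 and 1 for LiPS-47, the last being the probe set listed for Rian and AF357355. The pairs share lines, so these counts are not independent of each other. The members were also chosen with earlier results of these data known, so the shares describe the set and do not test it.

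**Figure D3:**
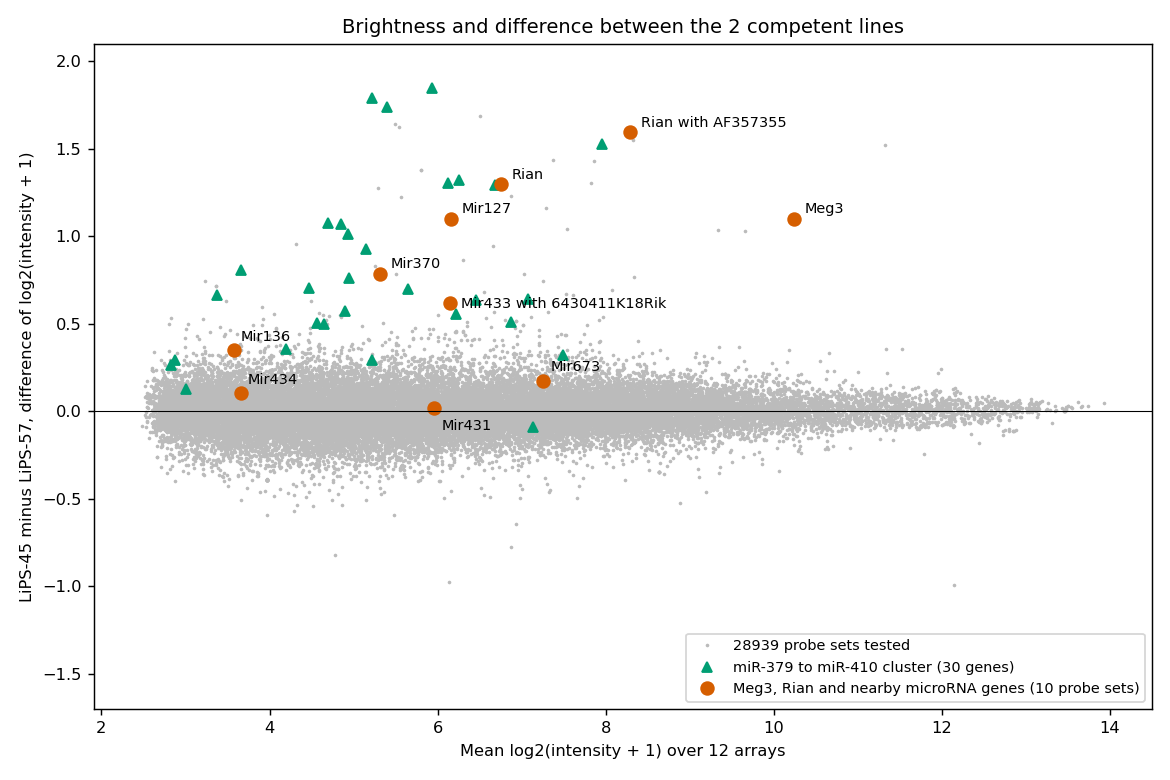
Mean log2(intensity + 1) over 12 arrays (horizontal) against the difference LiPS-45 minus LiPS-57 (vertical) for 28939 tested probe sets (grey), 30 genes of the miR-379 to miR-410 cluster (triangles) and the 10 probe sets described here (circles). Meg3 and both Rian probe sets lie far above the grey cloud at 1.10, 1.30 and 1.60, while Mir431 at 0.019 and Mir673 at 0.17 lie within it.

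Competence was compared as the 2 competent lines against the 2 others, with the line as a random block. For Meg3 and Rian the 2 competent lines were the highest and the lowest. With only 2 lines per class the test called no probe set of any kind, so it cannot decide the question for a member. Meg3 differed by -0.19 between competent and other lines, with a 95% interval of -0.66 to 0.28, and Rian by -0.34, with an interval of -0.92 to 0.25 (limma adjusted p = 0.828 and 0.758). The blocked fit gave every probe set the same correlation between cultures of a line, 0.183. Meg3 and Rian varied far more between lines than between cultures of a line. Their intervals are therefore too narrow for 2 lines per class and set no bound on a difference between the classes. Mir127 differed by 0.14 (limma adjusted p = 0.898). None of the 8 was called, none had an unadjusted p under 0.05, and 0% of all probe sets were called by limma, with 7.69% at an unadjusted p under 0.05. With the spread between cultures as the only error, 1 of 8 was called, against 6.18% of all called and 2.95% called lower. It was Rian, lower in the competent lines by a difference of -0.34 (limma adjusted p = 0.0445), and leaving out replicate 1, 2 or 3 of LiPS-45, 2 or 3 of LiPS-57, any 1 of LiPS-47, or 1 or 3 of LiPS-50 left 0 called.

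The RNAs did not all keep the same proportion to Meg3. When Meg3 was subtracted from each value on the same array, the probe set listed for Rian and AF357355 was higher in LiPS-47 than in LiPS-50 by 0.88, with no overlap of cultures. The snoRNA genes inside Rian with probe sets of their own, added to the description after their values were seen, behaved likewise: DQ267101 was higher in LiPS-47 by 0.77 and DQ267102 by 0.57. Each gave p = 0.1 in an exact two-sided permutation test, the smallest that 3 against 3 cultures can give. The corresponding differences were 0.29 for Rian's own probe set and 0.37 for Mir127 (exact permutation p = 0.2 each), and -0.099 for Mir370 (exact permutation p = 0.4). Meg3 itself differed by 0.031 in this pair, so the subtraction changed little. Without it, the cultures of LiPS-47 and LiPS-50 did not overlap for 30.7% of all tested probe sets.

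The same subtraction was made between LiPS-45 and LiPS-57. Relative to Meg3, the probe set listed for Rian and AF357355 was higher in LiPS-45 by 0.50. The values were lower in LiPS-45 for Mir431, Mir434, Mir673, Mir136 and the probe set listed for Mir433 and 6430411K18Rik, with differences that ran from -1.08 for Mir431 to -0.48 for the last. For these 6 probe sets the cultures did not overlap, and each gave p = 0.1 in the exact permutation test, the smallest possible, so none can pass 0.05. Meg3 itself differed by 1.10 in this pair, so the subtraction lowers a probe set that did not change by that amount. The paternally expressed Dlk1, Dio3 and Rtl1 gave -1.16, -1.29 and -0.85, also without overlap. The negative values are thus not particular to the members. The share of all probe sets without overlap after the subtraction was not computed. The differences were 0.20 for Rian's own probe set (exact permutation p = 0.4), -0.31 for Mir370 (exact permutation p = 0.2) and 0.00035 for Mir127 (exact permutation p = 1.0). The sign for Mir127 turned under other settings, to -0.17 with a pseudocount of 16.

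Without that subtraction, DQ267101 averaged 6.00 for LiPS-45, 4.72 for LiPS-57, 5.62 for LiPS-47 and 4.82 for LiPS-50. DQ267102 averaged 8.52 for LiPS-45, 7.09 for LiPS-57, 8.21 for LiPS-47 and 7.61 for LiPS-50. LiPS-45 and LiPS-47 were thus the high lines for both. Between LiPS-47 and LiPS-50 the differences were 0.81 for DQ267101 (limma adjusted p = 5.17e-04) and 0.60 for DQ267102 (limma adjusted p = 0.00660). On a scale from the LiPS-57 mean at 0% to the LiPS-45 mean at 100%, LiPS-50 stood at 65.9% for Meg3 and 63.7% for Rian, but at 35.1% for the probe set shared with AF357355 and 7.51% for DQ267101. LiPS-47 stood at 68.8%, 88.4%, 91.9% and 70.6% for these probe sets in the same order. For DQ267101 the LiPS-57 and LiPS-50 means lay below 5.21, the 40th percentile of brightness. Differences between dim values are understated, so its percentages are not fully comparable with those of Meg3.

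**Figure D4:**
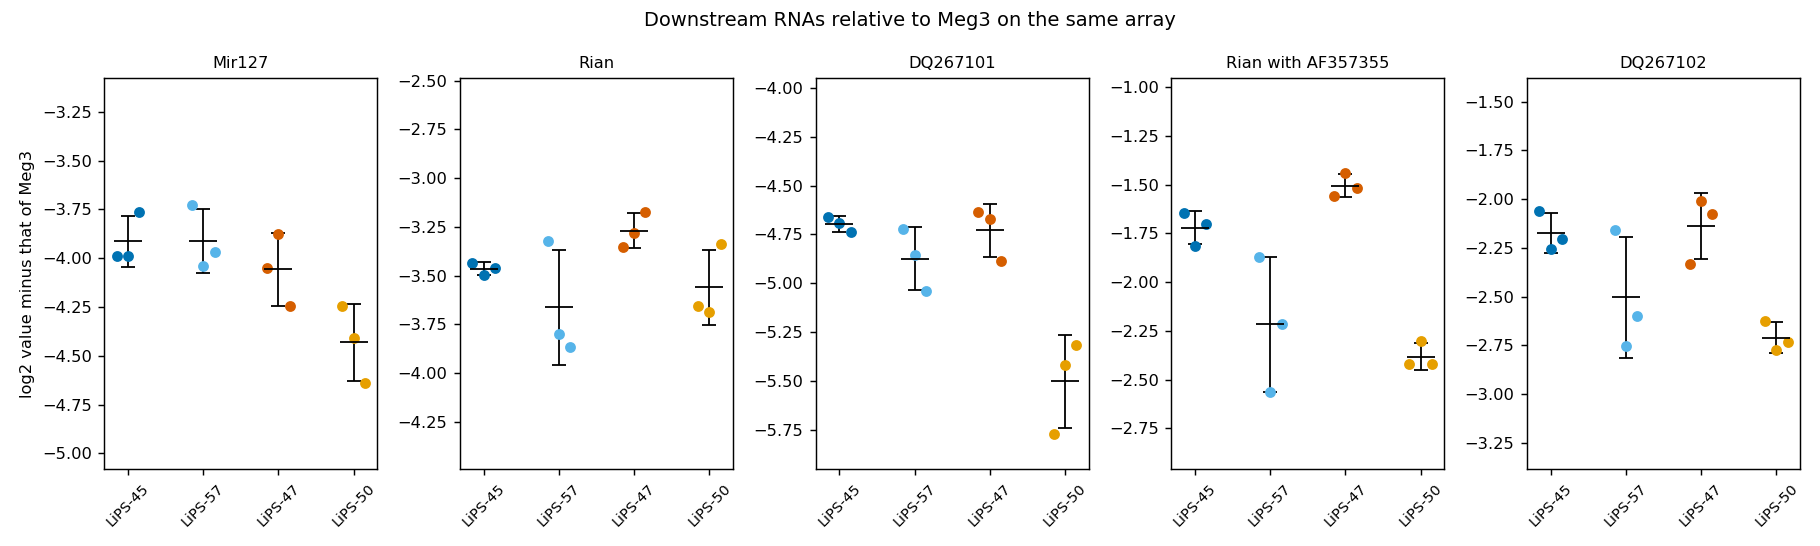
Log2 value minus that of Meg3 on the same array (vertical) for 5 probe sets in 3 cultures of each of 4 lines; points are arrays, horizontal bars means and whiskers the SD, and all panels span the same range. LiPS-50 lies below LiPS-47 without overlap for DQ267101, Rian with AF357355 and DQ267102, by 0.77, 0.88 and 0.57.

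The 10 genes whose values most resembled those of Meg3 over the 12 arrays, with members left out, had Pearson correlations of 0.911 to 0.976, and all 10 belong to the Dlk1-Dio3 domain. Mir329 was first with 0.976, followed by Mir380 with 0.953 and Mir485 with 0.946. The 10 most like Rian had correlations of 0.879 to 0.938, and all 10 were again from the domain. Among the members, the correlation with Meg3 was 0.930 for Rian, 0.893 for Mir370, 0.827 for Mir127, 0.516 for Mir136, 0.426 for Mir434, 0.402 for Mir673 and -0.024 for Mir431. These are descriptions over 12 arrays of 4 lines, in which the cultures of a line are not independent.

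The rest of the domain was read from lists of genes, which were likewise chosen with earlier results of these data known. Of the miR-379 to miR-410 cluster, the large microRNA group downstream of Rian, 30 of 40 genes were measured. In LiPS-45 against LiPS-57, 17 of the 30 were called, all as higher, against 0.214% of all tested probe sets called higher, and the median difference over the 30 was 0.68. Against LiPS-47, LiPS-57 was called lower for 9 of 30, against 0.145% of all. Between LiPS-47 and LiPS-50, 2 of 30 were called, both higher in LiPS-47, against 7.31% of all called higher. They were Mir679, with a difference of 0.46, and Mir487b, with 0.40 (limma adjusted p = 0.00336 and 0.0176). A higher value in LiPS-47 than in LiPS-50 was thus not confined to the snoRNA probe sets. At the Meg3 end, 4 further microRNA genes, Mir337, Mir540, Mir665 and Mir341, had positive differences of 0.31 to 0.55 between LiPS-45 and LiPS-57, and 0 of 4 were called.

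None of the 3 paternally expressed genes was called between LiPS-45 and LiPS-57, where 0.266% of all probe sets were. Dlk1, a transmembrane ligand related to the Notch ligands, averaged 8.77 for LiPS-45, 8.83 for LiPS-57, 8.59 for LiPS-47 and 9.56 for LiPS-50. It was lower than in LiPS-50 in each of the other lines, by differences of -0.79, -0.73 and -0.97 for LiPS-45, LiPS-57 and LiPS-47 (limma adjusted p = 8.71e-04, 0.00156 and 2.07e-04). Rtl1, a retrotransposon-derived gene needed in the placenta, measured 5.92, 6.12 and 5.82 for LiPS-45 and 5.67, 5.80 and 5.63 for LiPS-57. Its cultures did not overlap and differed in the direction of Meg3, by 0.25 (limma adjusted p = 0.483). The correlation of Rtl1 with Meg3 over the 12 arrays was 0.776, above that of Mir136, Mir434, Mir673 and Mir431.

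Outside the Meg3 end of the domain, limma called 0 of 19 regulators and imprint maintenance factors, 0 of 12 flanking genes of chromosome 12 and 0 of 7 measured maternally expressed RNAs of other imprinted domains between LiPS-45 and LiPS-57. With 0.266% of all probe sets called in that pair, these counts of 0 do not set the lists apart from the background. Of 14 measured paternally expressed RNAs, 1 was called: Nnat, a small membrane proteolipid, was lower in LiPS-45 by a difference of -0.45 (limma adjusted p = 0.0269).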

How the data were processed

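Total RNA extracted with Trizol was amplified and labelled as whole-transcript cDNA, per the labels' protocols. A linear intensity per probe set and array was deposited, and GCOS 1.4 is named in the submitters' processing notes. How probes were summarised, corrected and normalized is not given in the sources used here. Over the 12 arrays the log2 quartiles ranged by at most 0.112, and the values were used as deposited. Arrays have no read depth, and their number limits the precision.

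Of 35556 probe sets, 6617 numbered below the first annotated identifier were taken as controls and left out, which leaves 28939 tested. Of these 21789 list 1 gene, 1621 several and 5529 none. A gene's main probe set is the brightest that lists it alone. Symbols of 21698 probe sets were updated from RefSeq by gene identifier.

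Each intensity became log2(value + 1), which understates differences of dim genes. The two-sided tests came from limma 3.58.1 (lmFit, eBayes; R 4.3.3), fitting 4 line means over 12 arrays, with Benjamini-Hochberg adjustment over all tested probe sets and a threshold of 0.05. For competence, duplicateCorrelation treated the line as a random block, with a consensus correlation of 0.183. Differences relative to Meg3 were tested by exact permutation. The fit was tested on simulated data. Alternatives changed the normalization, pseudocount, filter, probe set rule, model and each replicate.

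All members are named, with the 10 genes most correlated with Meg3 and with Rian and called or defining members of gene lists. The members and lists were chosen with earlier results of these data known. Replicate numbers did not pair the lines: deviations of same-numbered arrays correlated between -0.169 and 0.121. No 2 arrays shared more than 0.613% of values.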

Additional observations from a re-analysis of the deposited data

Results flagged for a closer look

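For several RNAs the 2 competent lines lay on opposite sides of a line without competence in every culture. These differences in direction were picked by that pattern, and the opposition itself was not tested. Over all tested probe sets, the cultures of LiPS-45 and LiPS-47 did not overlap for 13.6%, and those of LiPS-57 and LiPS-47 for 11.9%. Against LiPS-50 the shares were 32.7% for LiPS-45 and 31.6% for LiPS-57. The share of all probe sets with the opposed pattern was not computed. For Meg3, all cultures of LiPS-45 were above and all of LiPS-57 below those of LiPS-47, and likewise those of LiPS-50, and LiPS-45 and LiPS-57 differed by 1.10 on the log2 scale. Relative to LiPS-47 the same held for Mir127, with a difference of 1.10 between LiPS-45 and LiPS-57, and for Mir370, with a difference of 0.79. For Mir127 and Mir370, however, neither LiPS-45 nor LiPS-57 was called against LiPS-47. For Meg3, LiPS-57 was called against LiPS-47 but LiPS-45 was not. Relative to LiPS-50 it held for Rian, with a difference of 1.30, and for the probe set listed for Rian and AF357355, with a difference of 1.60.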

How the results depend on the processing

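The counts of members called in LiPS-45 minus LiPS-57, LiPS-45 minus LiPS-50, LiPS-57 minus LiPS-47, LiPS-57 minus LiPS-50 and the blocked competence test stayed within 1.5 times of those reported under every alternative run; leaving out 1 array gave 3 to 4, 2 to 3, 2 to 2, 2 to 3 and 0 to 0 calls. The replicate block changed 1 call: between LiPS-47 and LiPS-50 it gave 1 call, Mir127, in place of 0. That pair also gave 1 call, again Mir127, with an intensity trend, median centring, quantile normalization, a pseudocount of 16 or dim probe sets removed, 1 (Rian) with the mean over all probe sets of a gene, 1 (Rian with AF357355) with shared probe sets counted, an alternative chosen after seeing the data, and 0 to 2 calls without 1 array. Between LiPS-45 and LiPS-47 the intensity trend gave 1 call, Meg3. For competence over the 4 line means, with 1 call as reported, the intensity trend, a pseudocount of 16 and dim probe sets removed gave 2, median centring, the control block included, the mean over all probe sets and shared probe sets counted gave 0, and leaving out 1 array gave 0 to 1. Relative to Meg3, the difference of Mir127 between LiPS-45 and LiPS-57 turned to -0.17 with a pseudocount of 16, and ranged from -0.075 to 0.092 without 1 array, being negative without LiPS-45 replicate 3 (-0.075), LiPS-57 replicate 2 (-0.062) or LiPS-57 replicate 3 (-0.029). Mir370 in LiPS-45 minus LiPS-57 also lost its call with the control block included (limma adjusted p = 0.0584) and with only the 2 lines fitted (0.0781), and the probe set of Mir433 with 6430411K18Rik with only the 2 lines fitted (0.109). Causes of these changes were not tested. Dim probe sets, Mir434 and Mir136 among them, limit what could be detected, and 2 lines per class limit any statement on competence.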
